A study of Danio rerio with 6 samples.

Results

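Sorted macrophages of uninjured zebrafish larvae were set against macrophages from trunk muscle at 1 day post injury (dpi), well by well gated on their own transcripts. The wells were chosen by measured values: a well entered if it held 1000 to 50000 gene transcripts, at least 1 transcript of MPEG1 (ENSDARG00000055290 or ENSDARG00000043093), and under 0.2% of npsn plus EPX and under 0.5% of grna.2. MPEG1 encodes a pore-forming protein of macrophages. The genes npsn (ENSDARG00000010423) and EPX (ENSDARG00000019521) mark granulocytes, and grna.2 (ENSDARG00000088641), a granulin gene, marks metaphocytes, macrophage-like cells of the skin. In all, 514 of 1152 wells passed, 188 of 384 in the uninjured library and 165 and 161 of 384 in replicates 1 and 2 of 1 dpi. Over the 6 libraries of the series, 932 of 2304 wells passed, with 232 at 2 dpi and 86 and 100 at 3 dpi.

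All larvae were of the TL strain, carried Tg(mpeg1:mCherry), in which the mpeg1 promoter drives the red fluorescent protein used for sorting, and were raised in 1-phenyl-2-thiourea, which keeps larvae free of pigment. The uninjured cells came from whole larvae at 4 days post fertilisation (dpf). The 1 dpi cells came from the dissected injury region at 5 dpf, 1 day after a needle puncture of the dorsal muscle, and the 2 and 3 dpi cells from the same region at 6 and 7 dpf. Injury, whole larva against dissected muscle, age and plate therefore changed together in this comparison and cannot be told apart. The uninjured group was 1 library, and the labels do not say whether the 1 dpi libraries came from separate larvae, so p-values measure a spread between libraries that may be technical.

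Macrophages reach damaged muscle early, clear debris of broken fibres, and release cytokines and proteases before repair sets in. In larval fish they also live in the brain as microglia, in the skin and in blood-forming tissue, all of which a whole larva contains. Annexins and their S100 partners bind membranes in the presence of calcium and take part in the sealing of wounded membranes. Cathepsins are lysosomal proteases, and the invariant chain CD74 guides class II histocompatibility molecules, which present antigen.

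The gated wells had a median of 8639.5 transcripts and 2227 genes in the uninjured library, against 4076 and 9373 transcripts and 1135 and 2309 genes in replicates 1 and 2 of 1 dpi. To remove this difference in depth, each gated well was thinned at random to 1000 transcripts and the wells of a library were summed, which gave 188000, 165000 and 161000 transcripts. A level is thus a share of transcripts and not an amount per cell, in counts of these sums scaled to 1000000 (CPM), where 1 transcript equals 5.32, 6.06 and 6.21 CPM. Other macrophage markers were present on both sides, but not all at like levels. CORO1A, an actin regulator of blood cells, stood at 580 CPM uninjured and at 739 and 1031 CPM at 1 dpi. The scavenger receptor gene marco stood at 367, 388 and 348 CPM in the same order. The marker spi1a was lower at 1 dpi, with 383 CPM uninjured and 212 and 273 CPM at 1 dpi. The marker lgals9l1 was higher, with 191 CPM uninjured and 455 and 721 CPM at 1 dpi. Neither spi1a nor lgals9l1 passed the test described below. The marker tyrobp had at most 1 thinned transcript in each of these libraries. Of the gated wells, 21.3% held an mCherry transcript in the uninjured library and 33.9% and 46.6% at 1 dpi.

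The gate removed unlike numbers of wells. Of the wells within the limits on total transcripts, 77 of 276 uninjured wells had no MPEG1 transcript, against 98 of 266 and 34 of 196 at 1 dpi, and 52, 51 and 24 gated wells passed with exactly 1. Since a deeper well has more chances of an MPEG1 transcript, this step depends on depth. The highest share of npsn plus EPX among gated wells was 0.0646% uninjured and 0.164% and 0.102% at 1 dpi, while the lowest share among the wells removed at that step was 0.888% uninjured and 0.595% in replicate 2. For grna.2 the highest shares inside were 0.0590%, 0.321% and 0.0648%, and the lowest outside were 0.810% uninjured and 2.16% in replicate 1. These values chose the wells and were not tested. The upper limit on transcripts removed 18 wells, all of them uninjured.

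Transcripts of other tissues, muscle above all, were more frequent in the uninjured wells than at 1 dpi. Pooled genes of 8 lists (skeletal muscle, skin, connective tissue, red blood cells, nervous system, eye, pancreas and gut, liver) made up a median of 1.49% of the transcripts of an uninjured gated well, against 0.460% and 0.480% at 1 dpi. The median was 0.704% on the next day and 0.523% and 0.452% at 3 dpi. The highest well held 33.1% uninjured and 1.51% and 1.98% at 1 dpi. In 13 uninjured wells (6.91%) these genes made up at least 5%, and in 0 wells at 1 dpi. After thinning, 187 of 188 uninjured wells held a skeletal muscle transcript, with a median of 8 in 1000, against 48 of 165 (29.1%) and 43 of 161 (26.7%) wells at 1 dpi. Nearly every uninjured well, and not a few of them, thus carried muscle transcripts. The 8 lists do not hold every gene of these tissues. They also leave out granulocyte genes, whose sum ran the other way. Apart from npsn and EPX, the granulocyte list summed to 1628 CPM uninjured and 2091 and 1876 CPM at 1 dpi.

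**Figure D1:**
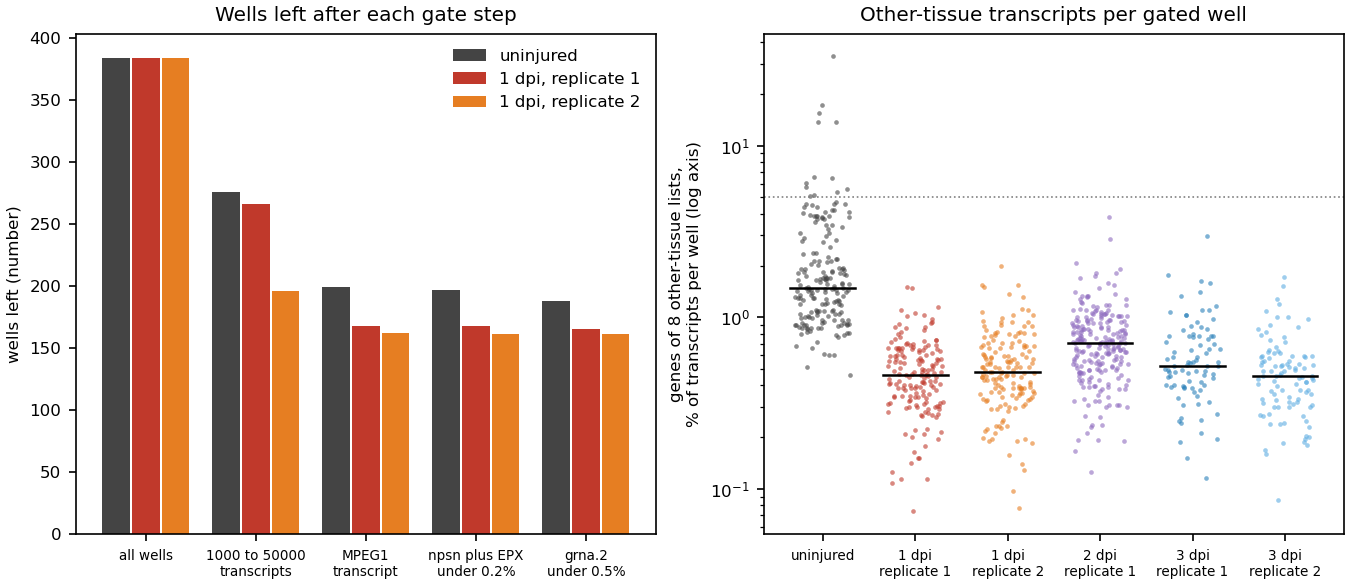
The left plot gives the number of wells left after each step of the gate in the uninjured library and in both 1 dpi libraries (y axis, wells; the bars are counts). The right plot gives, for each gated well (1 point), the percentage of its transcripts from 8 lists of other-tissue genes on a log axis, with black bars at the medians and a dotted line at 5%. The median was 1.49% in the uninjured library and 0.460% and 0.480% at 1 dpi, and only uninjured wells lay above the line.

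At 1 dpi the genes called higher than in the uninjured library included the annexin genes ANXA2 and anxa5b, the annexin partner gene s100a10b, the tetraspanin gene cd9b, the cytokine genes tnfb and m17 and the cathepsin gene CTSK. Those called lower included the invariant chain genes cd74a and cd74b, the mannose receptor gene mrc1b, the chemokine gene ccl34b.1, and FOSB and hsp70.3. Of 3256 genes tested with edgeR, 78 (2.4%) passed an adjusted p of 0.05 (Benjamini-Hochberg over all genes tested), 20 (0.614%) of them higher and 58 (1.78%) lower at 1 dpi. The spread came from the replicated 1 and 3 dpi groups, and the lone uninjured library was assumed to vary like them. The median log2 fold change of all genes was 0.00, and 344 genes had an unadjusted p under 0.05. Each 1 dpi library weighs on these counts. Without replicate 1 of 1 dpi 13 genes were higher and 52 lower, and without replicate 2 there were 13 and 42. With replicate 1 of 3 dpi left out the higher genes numbered 34 and with replicate 2 left out 31; each of these fits tested fewer genes (3216 and 3059) with 1 residual degree of freedom in place of 2. DESeq2, with another estimate of the spread, called 6 higher and 25 lower, all of them among the edgeR calls.

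**Figure D2:**
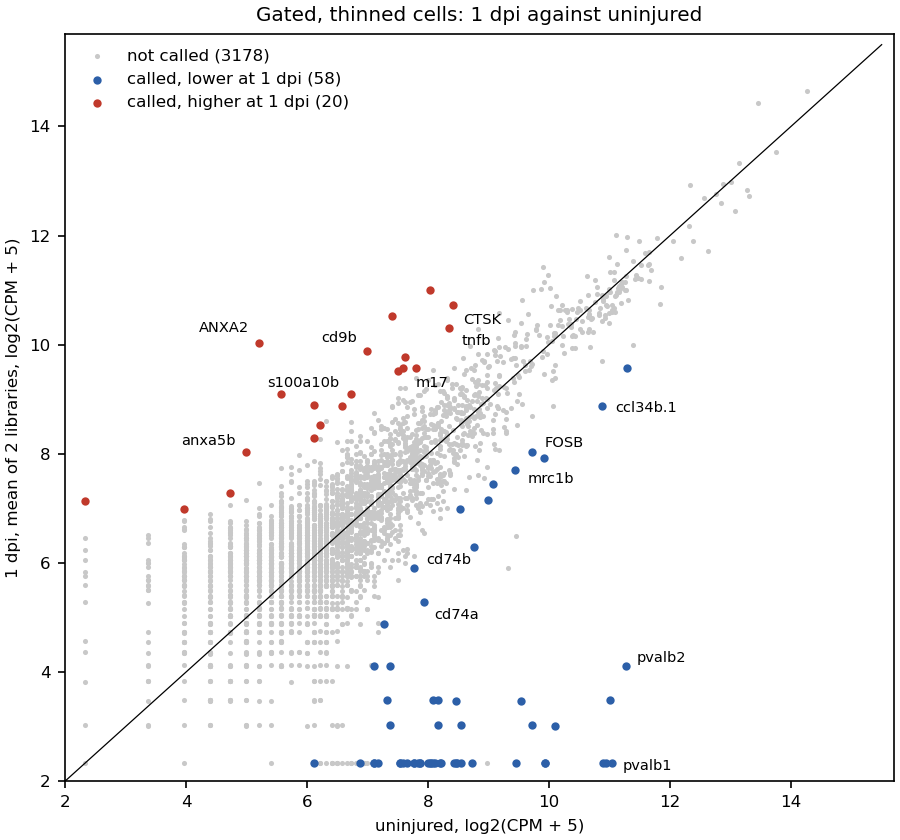
Each point is 1 of the 3256 genes tested, with its level in the uninjured library (x axis) and the mean of both 1 dpi libraries (y axis), both as log2(CPM + 5); the line marks equal levels. Red points are the 20 genes called higher and blue points the 58 called lower at 1 dpi by edgeR; the row of blue points along the bottom edge holds genes with 0 transcripts at 1 dpi, such as pvalb1.

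The genes higher at 1 dpi were led by ANXA2 (ENSDARG00000003216), which encodes annexin A2. Its level was 31.9 CPM in the uninjured library, 1030.3 and 1056 CPM at 1 dpi, 836 CPM at 2 dpi, and 453 and 200 CPM at 3 dpi. It was lowest in the uninjured library and highest at 1 dpi, with no overlap between 1 dpi and any other day. The log2 fold change was 4.86 (SE 0.67, edgeR adjusted p 2.62e-09). Its partner gene s100a10b, whose protein forms a complex with annexin A2, stood at 101 CPM uninjured and at 515 and 571 CPM at 1 dpi (log2 fold change 2.28, SE 0.55, edgeR adjusted p 0.00305). A second annexin gene, anxa5b, had 5 transcripts uninjured (26.6 CPM) and stood at 230 and 286 CPM at 1 dpi (log2 fold change 3.101, SE 0.72, edgeR adjusted p 0.00198). The 3 genes share the order uninjured below 1 dpi in both replicates, and s100a10b and anxa5b missed the threshold with DESeq2 (adjusted p 0.126 and 0.209).

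The tetraspanin gene cd9b, whose protein organises membrane adhesion complexes, stood at 122 CPM uninjured, 885 and 1000 CPM at 1 dpi, 690 CPM at 2 dpi, and 163 and 290 CPM at 3 dpi. At 3 dpi replicate 1 was near the uninjured level and replicate 2 above it. The log2 fold change was 2.80 (SE 0.55, edgeR adjusted p 7.02e-05). TAGLN, which encodes an actin-binding protein, stood at 63.8 CPM uninjured and at 400 and 217 CPM at 1 dpi (log2 fold change 2.14, edgeR adjusted p 0.0351). Its call ended without replicate 1 of 1 dpi, where the log2 fold change was 1.55 and the adjusted p 0.703.

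Among the lysosomal genes, CTSK (ENSDARG00000040251), the collagen-degrading cathepsin K, stood at 335 CPM uninjured and at 1394 and 1963 CPM at 1 dpi. It was still at 1224 CPM at 2 dpi and at 198 and 270 CPM at 3 dpi, below the uninjured library. The log2 fold change from uninjured to 1 dpi was 2.18 (SE 0.53, edgeR adjusted p 0.00363), and 1.96 with an adjusted p of 0.0633 without replicate 2 of 1 dpi. ATP6V1C1, a subunit of the proton pump that acidifies lysosomes, was called on 4 uninjured transcripts (21.3 CPM against 133 and 168 CPM, log2 fold change 2.64, edgeR adjusted p 0.0469). It passed in 7 of 19 alternatives, and its log2 fold change was 2.73 and 2.51 without replicates 1 and 2 of 1 dpi. Without the wells rich in other-tissue genes its log2 fold change was 0.59. The other uninjured wells were thinned anew in that setting, so removal of wells and a new random draw cannot be told apart. Thinned to 2000, ATP6V1C1 was detected in 19 of 174 uninjured wells and in 26 of 132 and 36 of 156 at 1 dpi. GUSB, which encodes the lysosomal enzyme beta-glucuronidase, was the only gene of the lysosome list called lower. Its level went from 532 CPM uninjured to 152 and 186 CPM at 1 dpi (log2 fold change -1.79, SE 0.47, edgeR adjusted p 0.00972). It stood at 530 CPM at 2 dpi and at 174 and 120 CPM at 3 dpi, so the later libraries lay on both sides. Without replicate 1 or replicate 2 of 1 dpi its adjusted p was 0.243 and 0.131.

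The cytokine gene tnfb (ENSDARG00000013598), a tumour necrosis factor paralog of fish, stood at 319 CPM uninjured and at 1061 and 1459.6 CPM at 1 dpi. At 2 dpi it stood at 888 CPM and at 3 dpi at 663 and 1270.0 CPM, so every injured library lay above the uninjured one and 3 dpi overlapped with 1 dpi. The log2 fold change was 1.84 (SE 0.53, edgeR adjusted p 0.0320). It missed the threshold without replicate 1 (adjusted p 0.115) and without replicate 2 (0.312) of 1 dpi. The gene m17, a cytokine of the interleukin 6 family in fish, stood at 186 CPM uninjured and at 824 and 677 CPM at 1 dpi (log2 fold change 1.88, SE 0.51, edgeR adjusted p 0.0170). It stayed at 513 CPM at 2 dpi and at 535 and 420 CPM at 3 dpi, and its adjusted p was 0.273 without replicate 1 of 1 dpi.

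For tnfa (ENSDARG00000009511), the tumour necrosis factor gene commonly read as a sign of inflammatory macrophages, the counts were small, with 2 transcripts uninjured. Its level was 10.6 CPM uninjured, 139 and 68.3 CPM at 1 dpi, 34.5 CPM at 2 dpi, and 11.63 and 20 CPM at 3 dpi. Both 1 dpi libraries lay above all others. However, tnfa passed the filter on low counts (61.4 CPM in at least 1 library) only through 1 dpi, so the filter favoured this order. The log2 fold change of 3.08 had an SE of 1.07 and did not pass (edgeR adjusted p 0.126). It passed in 6 of 19 alternatives.

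Among the remaining genes higher at 1 dpi, 4 are membrane proteins, regulators or enzymes with known names and moderate levels. SLC43A3, a transporter of nucleobases, stood at 63.8 CPM uninjured and 297 and 646 CPM at 1 dpi (log2 fold change 2.71, edgeR adjusted p 0.000648). STOML3, a membrane protein of the stomatin family, stood at 191 CPM uninjured and 873 and 870 CPM at 1 dpi (log2 fold change 2.05, edgeR adjusted p 0.00596). The replicates of STOML3 lay close together, while those of SLC43A3 lay far apart. UQCRQ, a subunit of respiratory complex III, stood at 176 CPM uninjured and 836 and 615 CPM at 1 dpi, against 172 CPM at 2 dpi (log2 fold change 1.92, edgeR adjusted p 0.0143). HOPX, a homeodomain cofactor that does not bind DNA itself, stood at 69.1 CPM uninjured and 309 and 416 CPM at 1 dpi (log2 fold change 2.24, edgeR adjusted p 0.00957). Without replicate 2 of 1 dpi the adjusted p was 0.131 for SLC43A3 and 0.142 for HOPX, and without replicate 1 it was 0.0802 for STOML3 and 0.347 for UQCRQ.

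The gene tiparp, whose product adds ADP-ribose to proteins and is a known target of the aryl hydrocarbon receptor, rested on 1 library. It stood at 90.4 CPM uninjured and at 236 and 696 CPM at 1 dpi (log2 fold change 2.19, edgeR adjusted p 0.00922). Without replicate 2 the log2 fold change was 1.29 and the adjusted p 0.779. NOCT, a circadian gene with phosphatase activity, had 2 transcripts uninjured and 40 at 1 dpi, a ratio of 11.5 (95% counting interval 2.99 to 98.5). Its call also ended without replicate 1 (adjusted p 0.384) or replicate 2 (0.102).

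Some of the clearest calls fell on genes without an assigned function. The level of si:dkey-6n3.3 was 255 CPM uninjured, 1873 and 2224 CPM at 1 dpi, 513 CPM at 2 dpi, and 128 and 290 CPM at 3 dpi (log2 fold change 2.86, edgeR adjusted p 5.47e-05). The level of si:dkey-119g10.4 was 165 CPM uninjured, 1424 and 1509 CPM at 1 dpi, 371 CPM at 2 dpi, and 174 and 140 CPM at 3 dpi (log2 fold change 3.01, edgeR adjusted p 9.45e-06). Both were highest at 1 dpi and near the uninjured level by 3 dpi. The gene si:ch211-198c19.3 went from 42.6 CPM uninjured to 521 and 565 CPM at 1 dpi (log2 fold change 3.51, edgeR adjusted p 8.21e-06). ANXA2, cd9b and these 3 genes were called in all 19 alternatives. An unnamed gene, ENSDARG00000089319, had 0 transcripts uninjured and 44 at 1 dpi, at least 8.458-fold higher against a floor of 3 counts. Another, ENSDARG00000045980, stood at 218 CPM uninjured and at 830 and 689 CPM at 1 dpi (edgeR adjusted p 0.0488, and 0.480 and 0.125 without replicates 1 and 2 of 1 dpi).

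Of the 20 genes, 14 stood higher in both 1 dpi libraries than in every later library. At 2 dpi 19 of the 20 were still above the uninjured library, and at 3 dpi 18 and 17. These counts describe genes chosen for being high at 1 dpi and were not tested.

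**Figure D3:**
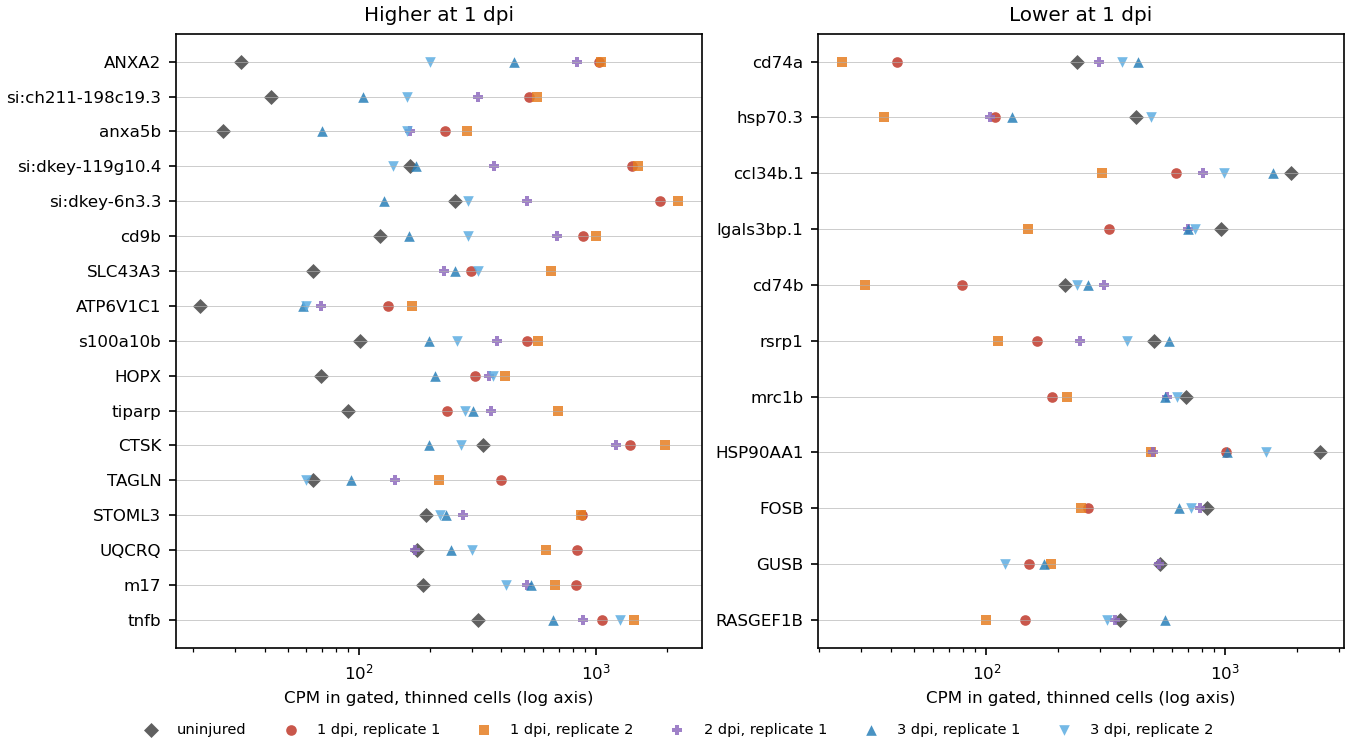
Levels of named genes in each of the 6 libraries, as CPM of the gated and thinned wells on a log axis, with 1 symbol per library. The left plot holds 17 genes called higher at 1 dpi and the right plot 11 called lower; red circles and orange squares (1 dpi) lie to the right of the grey diamond (uninjured) on the left and to its left on the right, while the 2 and 3 dpi symbols lie between or on either side.

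Of the 58 genes lower at 1 dpi, 15 had more than 3 transcripts left at 1 dpi, and 9 of the 15 are described here with roles in macrophages or in stress. The genes cd74a and cd74b encode the invariant chain. For cd74a the level was 239 CPM uninjured, 42.4 and 24.8 CPM at 1 dpi, 297 CPM at 2 dpi, and 430 and 370 CPM at 3 dpi. It was lowest at 1 dpi and above the uninjured library on both later days (log2 fold change -2.93, SE 0.59, edgeR adjusted p 0.000125). For cd74b the level was 213 CPM uninjured, 78.8 and 31.1 CPM at 1 dpi, and 310, 267 and 240 CPM later (log2 fold change -2.06, SE 0.58, edgeR adjusted p 0.0225). The order was the same as for cd74a, but the call ended without replicate 2 of 1 dpi (adjusted p 0.616). These 2 paralogs could share reads.

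The gene mrc1b encodes a mannose receptor that takes up glycoproteins and is used as a mark of resident or repair-type macrophages. Its level was 686 CPM uninjured, 188 and 217 CPM at 1 dpi, 569 CPM at 2 dpi, and 558 and 630 CPM at 3 dpi. The 1 dpi libraries lay well below all others, and the later ones came close to the uninjured level (log2 fold change -1.89, SE 0.45, edgeR adjusted p 0.00307). The adjusted p was 0.125 without replicate 1 and 0.0803 without replicate 2 of 1 dpi.

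The chemokine gene ccl34b.1 (ENSDARG00000093608), which is used to mark a class of microglia in fish, stood at 1883 CPM uninjured, 624 and 304 CPM at 1 dpi, 810 CPM at 2 dpi, and 1593 and 990 CPM at 3 dpi. The replicates of 1 dpi differed between themselves, and both were below all other libraries (log2 fold change -2.13, SE 0.47, edgeR adjusted p 0.000991). Without replicate 2 of 1 dpi the adjusted p was 0.345. The gene lgals3bp.1, a galectin-binding protein gene, stood at 957 CPM uninjured, 327 and 149 CPM at 1 dpi, and 703, 698 and 750 CPM later (log2 fold change -2.12, SE 0.45, edgeR adjusted p 0.0005, and 0.245 without replicate 2). Other microglial genes did not pass. The apolipoprotein gene apoeb stood at 1043 CPM uninjured and 1430.3 and 1913 CPM at 1 dpi (edgeR adjusted p 0.835), and apoc1 at 2021 CPM uninjured and 2139 and 1981 CPM at 1 dpi (0.971). Wells in which apoeb plus apoc1 reached 1% were 14, 10 and 18 of the gated wells. Without them, 10 of the 15 genes were still called lower. The wells were thinned anew in that fit, and another random thinning of all gated wells kept 11 of the 15. The part of the removed wells cannot be read from these counts.

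FOSB, an immediate early transcription factor gene, stood at 840 CPM uninjured, 267 and 248 CPM at 1 dpi, 789 CPM at 2 dpi, and 640 and 720 CPM at 3 dpi (log2 fold change -1.83, SE 0.45, edgeR adjusted p 0.00386). The 1 dpi replicates lay close together and below every other library, yet the call ended without replicate 1 (adjusted p 0.0842) or replicate 2 (0.163). The heat shock gene hsp70.3, one of several close copies that could share reads, stood at 426 CPM uninjured, 109 and 37.3 CPM at 1 dpi, and 103, 128 and 490 CPM later (log2 fold change -2.64, SE 0.56, edgeR adjusted p 0.00121). The chaperone gene HSP90AA1 stood at 2495 CPM uninjured, 1012 and 491 CPM at 1 dpi, and 500, 1023 and 1490.0 CPM later (log2 fold change -1.84, SE 0.47, edgeR adjusted p 0.00853). For both chaperone genes a later library overlapped with 1 dpi, and without replicate 2 of 1 dpi the adjusted p was 0.105 for hsp70.3 and 0.616 for HSP90AA1.

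The 6 remaining genes with transcripts left at 1 dpi were mostly small in count. RASGEF1B, an exchange factor gene of small GTPases, stood at 362 CPM uninjured and 145 and 99.4 CPM at 1 dpi. The gene rsrp1 stood at 505 CPM uninjured and 164 and 112 CPM at 1 dpi. Both were above 1 dpi on every later day. Without replicate 2 of 1 dpi the adjusted p was 0.588 for RASGEF1B and 0.242 for rsrp1. The glycolytic gene GAPDH (also in the skeletal muscle list), the muscle gene pvalb2, si:dkey-262g12.4 and the unnamed ENSDARG00000022013 had 4, 4, 4 and 8 transcripts at 1 dpi. Of these, GAPDH, pvalb2 and ENSDARG00000022013 passed the filter on low counts only through the uninjured library, so that they too had to differ. Of all 15 genes, only pvalb2 passed with DESeq2, and only pvalb2 and cd74a stayed called without replicate 2 of 1 dpi; 9 stayed called without replicate 1. All 15 kept their direction in every alternative that tested them. Without the 13 uninjured wells rich in other-tissue genes, 13 of the 15 stayed called. That fit also thinned the uninjured wells anew, and another random thinning of all gated wells kept 11. The part of the removed wells cannot be read from this count.

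The other 43 genes had 0 to 3 transcripts over both 1 dpi libraries, and 20 of them are in the lists of other tissues. The lists are not complete, so 20 is an undercount. Genes outside them include the muscle genes TNNI2, TNNT3, TTN and MYL11, the collagen genes COL1A1 and COL2A1, and the cone opsin genes OPN1SW and opn1mw2. Of the 43, 40 passed the filter on low counts (61.4 CPM in at least 1 library) only through the uninjured library, so that they had to differ, and their number is no result about macrophages. The other 3, krt5 among them, also passed through a later library. Of the 43, 11 are in the skeletal muscle list and 5 in the connective tissue list, and both lists leave out genes of their tissue, such as TNNI2 and COL1A1. Against a floor of 3 counts over both 1 dpi libraries, pvalb1, a calcium buffer of fast muscle, was at least 228-fold lower at 1 dpi (394 transcripts against 0). The myosin light chain gene MYL1 (ENSDARG00000017441) was at least 214-fold lower and the tropomyosin gene tpma at least 206-fold lower. Muscle creatine kinase, ckmb, was at least 105-fold lower, as was col1a1a, a chain of type I collagen (each with 182 transcripts against 0). Outside muscle and matrix, the haemoglobin gene hbae3 was at least 39.9-fold lower, the cone opsin gene OPN1SW at least 29.5-fold and the plasma apolipoprotein gene apoa2 at least 23.1-fold.

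These transcripts were spread over uninjured wells. MYL1 (ENSDARG00000017441) was found in 122 of 188 thinned uninjured wells and pvalb1 in 112, while col1a1a was found in 44 and hbae3 in 13. The summed level of the skeletal muscle list was 13649 CPM uninjured and 406 and 323 CPM at 1 dpi, and still 9309 CPM without the 13 uninjured wells rich in other-tissue genes. Connective tissue genes summed to 2580 CPM uninjured and 200 and 155 CPM at 1 dpi, and red blood cell genes to 521 CPM uninjured and 12.12 and 37.3 CPM at 1 dpi. The summed levels of the skin and neural lists did not share this pattern. Of 13 tested keratinocyte genes, however, 8 lay below the uninjured library in both 1 dpi libraries and 3 above it. Their median log2 fold change was -0.71. Only 1 of the 13 passed the filter on low counts only through the uninjured library, and the other 12 had a median of -0.62. Keratinocyte genes summed to 4383 CPM uninjured, 3236 and 3621 CPM at 1 dpi, 5694 CPM at 2 dpi and 4802 and 2890.0 CPM at 3 dpi, and neural genes to 1229 CPM uninjured and 1067 and 1410 CPM at 1 dpi. Muscle transcripts were thus low in cells from dissected muscle and high in cells from whole larvae. The part of these transcripts in the other lower calls was not tested.

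Gene lists were read by their counts of calls and medians, beside 0.614% of all genes tested called higher, 1.78% called lower, a median of 0.00 and 50.0% above 0. Members that passed the filter on low counts only through 1 dpi or only through the uninjured library had a sign the filter favoured. Their number is given with each median in the text that includes them. Of all genes tested, 183 passed only through the uninjured library, 43 of the 58 lower calls among them, and 419 only through 1 dpi. Among the other 2654 genes, 20 were called higher and 15 lower. Of these 2654, 1254 had a log2 fold change above 0, and the median was -0.06. Both 1 dpi libraries lay above the uninjured one for 40.0% of all genes and below it for 32.4%. Of the inflammatory mediator genes, 2 of 11 were called higher (tnfb and m17) and 0 lower, with a median log2 fold change of 0.84; 3 of the 11, tnfa among them, passed the filter only through 1 dpi, and the other 8 had a median of 0.58. Of 25 tested proteasome genes, which encode the protease that degrades tagged proteins, 0 were called in either direction, with a median of 0.80. As many as 10 of the 25 passed the filter only through 1 dpi, and their sign is no result. The other 15 all had a log2 fold change above 0. The summed level of all 29 measured members, which no filter chose, was 1851 CPM uninjured, 3461 and 3863 CPM at 1 dpi, 1530.2 CPM at 2 dpi, and 1116 and 980 CPM at 3 dpi. As a single example, PSMC6 stood at 133 CPM uninjured and at 418 and 236 CPM at 1 dpi (edgeR adjusted p 0.421).

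Of 61 genes of the respiratory chain, 1 was called higher (UQCRQ) and 0 lower. For 53 the log2 fold change was above 0, with a median of 0.56; 9 of the 61 passed only through 1 dpi and 1 only through the uninjured library, and of the other 51, 45 were above 0. The list summed to 10378 CPM uninjured, 17636 and 14988 CPM at 1 dpi, and 6490.0 to 9384 CPM at 2 and 3 dpi. Of 38 lysosomal genes, 1 was called higher (CTSK) and 1 lower (GUSB), with 32 above 0 and a median of 0.55; 3 passed only through 1 dpi, and of the other 35, 29 were above 0. The lysosomal sum was 18367 CPM uninjured and 33164 and 30261 CPM at 1 dpi. Actin and migration genes (28 tested, 0 called) had a median of 0.33 and summed to 48388 CPM uninjured and 67436 and 70484 CPM at 1 dpi. Of the 28, 1 passed only through 1 dpi, and the other 27 had a median of 0.29. In flna, which encodes the actin crosslinker filamin A, the level was 21.3 CPM uninjured and 109 and 149 CPM at 1 dpi (edgeR adjusted p 0.101). Genes of protein folding in the endoplasmic reticulum (28 tested, 0 called) had a median of 0.31. Of these, 3 passed only through 1 dpi and 1 only through the uninjured library, and the other 24 had a median of 0.28.

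The stress and immediate early list lay on the other side. Of 27 genes, 0 were called higher and 2 lower (FOSB and hsp70.3), 7 were above 0, and the median was -0.74. For 16 of the 27 both 1 dpi libraries lay below the uninjured one. FOS stood at 479 CPM uninjured and 279 and 87.0 CPM at 1 dpi (edgeR adjusted p 0.0901). Antigen presentation genes had 0 of 10 called higher and 2 lower (cd74a and cd74b), with a median of -0.34. Of the 10, 1 (CD276) passed the filter only through 1 dpi, and the other 9 had a median of -0.41. The sum of the list went the other way, with 5447 CPM uninjured and 6455 and 5509 CPM at 1 dpi. The receptors of dead-cell uptake had 1 of 7 called lower (mrc1b), with a median of -0.38, and the microglia list 1 of 10 (ccl34b.1), with a median of -0.17. The general macrophage list had 0 of 24 called in either direction and a median of -0.09.

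**Figure D4:**
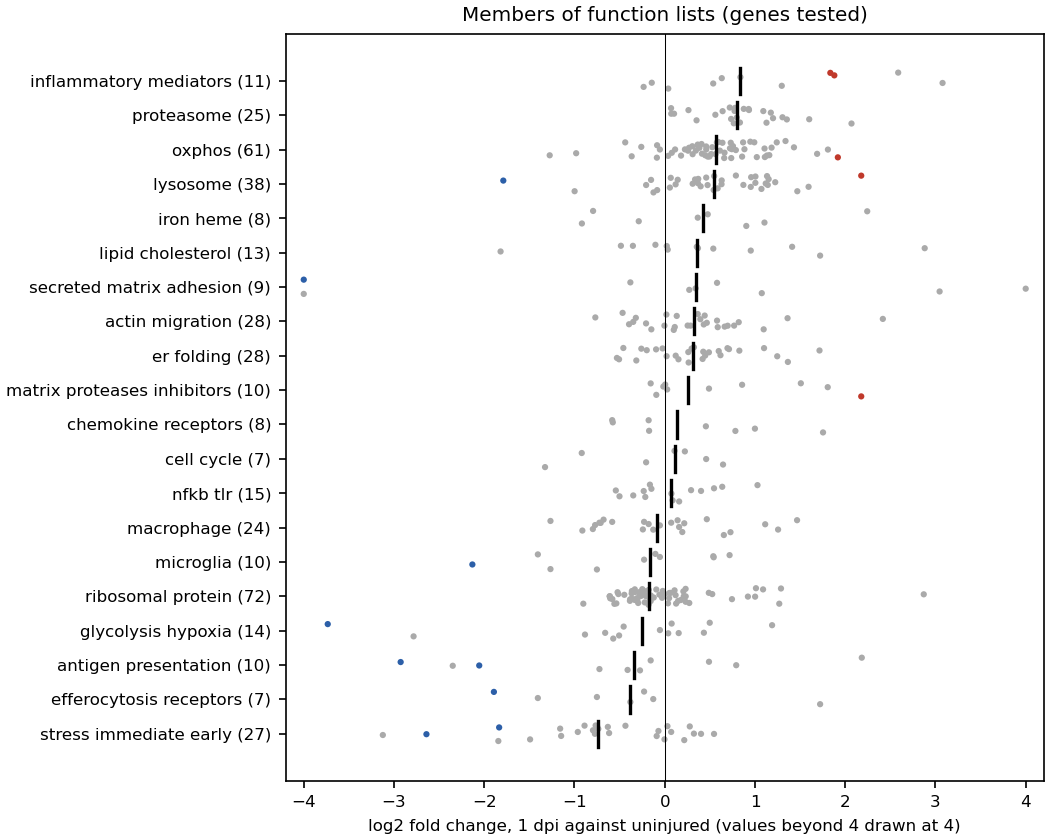
Each point is the log2 fold change of 1 tested gene, 1 dpi against uninjured (x axis), by function list (y axis, number of genes tested in brackets; values beyond 4 in size are drawn at 4). Red and blue points were called higher and lower, and grey points were not called. Black bars are medians, which run from 0.84 for inflammatory mediators to -0.74 for stress and immediate early genes. They include members that passed the filter on low counts only through 1 dpi or only through the uninjured library. Without such members the median was 0.58 for inflammatory mediators and 0.80 for proteasome genes.

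Of genes commonly read in injured tissue, several did not pass. MMP9, which encodes a gelatinase, stood at 42.6 CPM uninjured, 158 and 174 CPM at 1 dpi, and 228, 186 and 240 CPM later (edgeR adjusted p 0.180). Every injured library lay above the uninjured one. The collagenase gene mmp13a stood at 186 CPM uninjured and 315 and 93.2 CPM at 1 dpi, on both sides of the uninjured level (edgeR adjusted p 0.990). ACOD1, whose enzyme makes itaconate, stood at 1101 CPM uninjured and 1630.3 and 2137 CPM at 1 dpi (edgeR adjusted p 0.762). The adjusted p values of these genes do not show that their levels were alike.

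Among further genes that did not pass, the chemokine receptor gene CCR9 came close, with 101 CPM uninjured and 333 and 422 CPM at 1 dpi (edgeR adjusted p 0.0602), and passed in 6 of 19 alternatives. Of the 2 fibronectin genes, which encode a matrix protein, FN1 (ENSDARG00000019815) stood at 10.6 CPM uninjured and 24.2 and 186 CPM at 1 dpi, while FN1 (ENSDARG00000006526) stood at 101 CPM uninjured and had 0 transcripts at 1 dpi (edgeR adjusted p 0.129 and 0.107). The first copy passed the filter on low counts only through 1 dpi and the second only through the uninjured library. Their opposite order was thus favoured by the filter and is no result. The main MFAP4 genes, which serve as macrophage markers in fish, stood at 2037 CPM uninjured and 1630.3 and 1049.7 CPM at 1 dpi (ENSDARG00000088745) and at 1154 CPM and 1364 and 1435 CPM (ENSDARG00000090783), with edgeR adjusted p of 0.663 and 0.963. NAMPT, an enzyme gene of NAD synthesis, stood at 133 CPM uninjured and 115 and 80.7 CPM at 1 dpi (edgeR adjusted p 0.838). ARG2, the arginase gene, had too few transcripts to be tested, with 16 CPM uninjured and 30.3 and 12.4 CPM at 1 dpi.

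Shares of wells showed whether a gene was detected more widely. After thinning, ANXA2 was detected in 2.66% of uninjured wells (exact Clopper-Pearson 95% interval 0.869 to 6.10%) and in 32.1% and 42.2% of wells at 1 dpi. Without thinning the shares were 21.3%, 57.6% and 65.2%. The gene cd9b was detected in 10.1% of uninjured wells and 37.6% and 47.2% at 1 dpi, and tnfb in 17.6% and in 50.9% and 63.4%. For all these genes the intervals of the uninjured and the 1 dpi libraries did not overlap. Intervals cover counting error among wells only, and wells of 1 library are not replicates.

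CTSK was detected in 14.9% of uninjured wells and 37.0% and 39.8% at 1 dpi, and the highest thinned well held 11 of 1000 transcripts uninjured against 30 and 42 at 1 dpi. Cathepsin K was therefore detected in more wells and reached higher values within a well. The share of wells with tnfa was 0.532% uninjured (1 well) and 7.27% and 6.21% at 1 dpi, and 4.26%, 18.8% and 21.7% without thinning. The scavenger receptor gene marco was detected in 26.1%, 30.3% and 25.5% of wells in the same order of libraries.

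For the lower genes, mrc1b was detected in 38.8% of uninjured wells and 15.8% and 16.8% at 1 dpi after thinning. The unthinned shares were 74.5%, 38.2% and 61.5%, so the deeper replicate 2 came nearer to the uninjured library. The gene ccl34b.1 was detected in 48.9% of uninjured wells and 26.1% and 18% at 1 dpi, and FOSB in 44.1% and in 17% and 18%. The invariant chain gene cd74a was detected in 9.57% of uninjured wells and 2.42% and 1.86% at 1 dpi. The apolipoprotein gene apoeb ran the other way, from 13.8% to 29.7% and 23.6%, with up to 36, 65 and 37 of 1000 transcripts in a well.

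**Figure D5:**
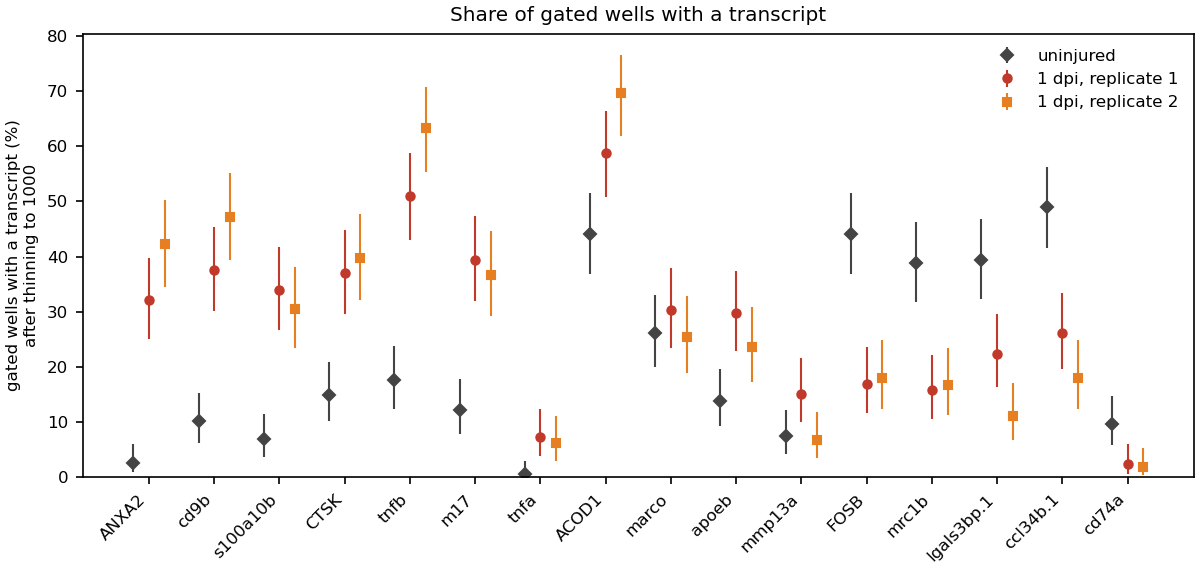
Share of gated wells with at least 1 transcript after thinning to 1000 (y axis, percent) for 16 genes in the uninjured library and both 1 dpi libraries; bars are exact 95% intervals over wells, for counting error only. ANXA2, at 2.66% uninjured against 32.1% and 42.2%, and FOSB, at 44.1% against 17% and 18%, lie apart, while marco overlaps.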

How the data were processed

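Each library was a 384-well plate of sorted cells, read by SORT-seq (a plate form of CEL-Seq2). The deposited values are expected counts, the transcript number per gene and well after the authors' correction of molecular identifiers. Per the submitters' processing notes, BWA and the Zv9 build were used in roles not stated. How transcripts were counted and identifiers filtered is not given in the sources used here. Of 25130 gene identifiers, 19001 (75.6%) matched a table of symbols. Counts were rounded, spike-ins left out, and wells gated, thinned to 1000 transcripts and summed per library with numpy 2.4.6.

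The 6 sums entered 1 edgeR 4.0.16 fit (R 4.3.3; TMM, filterByExpr by group, robust quasi-likelihood, a mean per group, 2 residual degrees of freedom) with Benjamini-Hochberg adjustment and calls at 0.05. The procedure was tested on simulated data in which all 6 libraries had the same spread. Such data cannot check the assumption that the lone uninjured library varies like the others. The SE given with a log2 fold change is its absolute value divided by the square root of the F statistic of the edgeR test. It was thus derived from the test and is not a separate estimate of error. DESeq2 1.42.0 was an alternative among 19. The 1 dpi libraries differed by more than sampling noise (a chi-square of 4.63 times its degrees of freedom over 2856 genes). No doublet caller was run, since each well received 1 sorted event.

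The comparison, its members and 38 gene lists were chosen with earlier results of these data known. Genes named are, per direction, the 14 called genes with the largest fold change among those with a mean of at least 150 CPM in the higher group and both 1 dpi libraries on the same side, up to 4 genes per function list by smallest p, and 16 further genes; other called genes were added after their values were seen. Genes of the gate stayed in the fit and in the adjustment, but no test of them is given. Among those 16, hmox1a was not analysed here under that name. Intervals are exact binomial ones at 95% for counting error only.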

Additional observations from a re-analysis of the deposited data

How the results depend on the processing

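The 78 calls (2.4% of 3256 genes tested) became 119 (4.17% of 2857) with the 3 compared libraries alone and 31 (0.952% of 3256) with DESeq2. They became 347 (3.21% of 10819) without thinning, 143 (2.94% of 4870) thinned to 2000 and 204 (6.27% of 3256) with the replicate number as a block. The counts thus rest on unlike numbers of genes tested. The 20 higher calls became 33, 6, 57, 39 and 59 in that order, and the 58 lower calls 25 with DESeq2, 290 without thinning, 104 thinned to 2000 and 145 with the replicate block. The cause of these shifts was not tested. Without 1 library at a time, total calls ranged from 55 to 107, higher calls from 13 to 34 and lower calls from 42 to 76. The uninjured and 1 dpi libraries share only 1 number, and the numbers were not taken to pair the samples. Over 3256 genes, deviations of same-numbered 1 and 3 dpi libraries from their group mean correlated at 0.239. With the number as a block, the coefficient of variation between libraries estimated by edgeR fell from 29.3% to 16.7%, on 1 residual degree of freedom in place of 2. Whether same-numbered libraries share a source of variation was not tested. No call reversed. Scaling by library size alone moved the median of all genes by 0.093. At 1000 transcripts per well, 1 transcript is 5 to 6 CPM of a sum, so genes under about 10 counts carry little information, and another random thinning gave 90 calls.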

Other observations

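Genes of fat handling and iron storage were not described above. Of 13 tested lipid and cholesterol genes 0 were called in either direction, with a median log2 fold change of 0.36. Of the 13, 2 (LIPA and LRPAP1) passed the filter on low counts only through 1 dpi, and the other 11 had a median of 0.03. PLIN2, which coats lipid droplets, stood at 176 CPM uninjured, 461 and 571 CPM at 1 dpi, and 276, 163 and 430 CPM later (edgeR adjusted p 0.165). The endocytic receptor gene LRP1 stood at 58.5 CPM uninjured and 176 and 255 CPM at 1 dpi (edgeR adjusted p 0.180), and LRPAP1, the gene of its chaperone, at 10.6 CPM uninjured and 66.7 and 118 CPM at 1 dpi (0.231). Both replicates lay above the uninjured library for these 3 genes, but none passed, and for LRPAP1 the filter favoured that order. Of 8 iron and heme genes 0 were called, with a median of 0.42. Of the 8, 1 passed the filter only through the uninjured library, and the other 7 had a median of 0.48. The ferritin gene fth1a stood at 1032 CPM uninjured and 2636 and 1553 CPM at 1 dpi (edgeR adjusted p 0.587), and fthl31 at 74.5 CPM uninjured and 630 and 130 CPM (0.440), so the replicates were far apart.

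Other lists showed few calls. Cytosolic ribosomal protein genes had 0 of 72 called, with a median of -0.18. For 23 of them both 1 dpi libraries lay above the uninjured one and for 22 below it. Glycolysis genes had 1 of 14 called lower, GAPDH, which is also in the skeletal muscle list. It passed the filter on low counts only through the uninjured library and had to differ. None of the 11 members that passed otherwise was called. The lists of Toll-like receptor and NF-kB signalling (15 genes), chemokine receptors (8), cell cycle (7), interferon response (4), complement (4), growth factors (4), arginine and polyamine (3) and eicosanoid genes (2) had 0 called. Among matrix proteases and inhibitors, 1 of 10 was called higher (CTSK), and among secreted matrix genes 1 of 9 lower. The latter, SPARC, is also in the connective tissue list, had 0 transcripts in every injured library and had to differ, so it is no result about that list. The versican gene vcanb stood at 197 CPM uninjured, 418 and 497 CPM at 1 dpi, and 487, 116 and 150 CPM later (edgeR adjusted p 0.403).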
